A study of Mus musculus with 4 samples.

Results

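Solute carriers are membrane proteins that move sugars, amino acids, ions, metals, vitamins, nucleotides and lipids across the plasma membrane and the membranes of organelles, and their genes carry the prefix Slc followed by a family number. The genes examined here were the protein-coding Slc genes with a mean above 1 FPKM over the 4 deposited libraries, where FPKM is a fragment count scaled to transcript length and library size. There were 172 such genes among 371 protein-coding Slc genes in the table, and they came from 43 of 49 Slc families. They were grouped by the substrate each family is known to carry. The mean that chose them does not use the difference between genotypes. A gene may still pass through its level in 1 group alone, and levels and membership are a description only.

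The 4 libraries were made from group 3 innate lymphoid cells (ILC3s), which are lymphocytes of the gut that make IL-22, sorted from the small intestinal lamina propria of mixed bone marrow chimeric mice. Sublethally irradiated Rag2-/-Il2rg-/- hosts, which lack lymphocytes of their own, had received 2500000 bone marrow cells of each of 2 donors 6 to 7 weeks earlier. The Brg1-sufficient ILC3s (2 libraries) descended from Rag1-/- donors of type Thy1.2/1.2 that were Smarca4 f/f, and were sorted as CD45low Thy1.2high Thy1.1- cells. The Brg1-deficient ILC3s (2 libraries) descended from Rag1-/- donors of type Thy1.1/1.2 that were Smarca4 f/f with a Cre transgene, and were sorted as CD45low Thy1.2high Thy1.1+ cells. Both donors thus carried the floxed Smarca4 allele, which encodes Brg1, the ATPase of the BAF chromatin remodelling complex, and both lacked Rag1. The Thy1.1 marker differs with the genotype, so that a difference tied to it cannot be told apart from one tied to the loss of Brg1. Ages are not given, and the sources used here do not say how many chimeras went into a library or whether the same chimeras gave both cell types.

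Smarca4, the targeted gene, had 17.07 and 16.73 FPKM against 9.98 and 9.03 FPKM, where here and below the 2 Brg1-sufficient libraries come first and the 2 Brg1-deficient ones second. Its mean after deletion came to 56.2% of that with Brg1 intact (log2 fold change -0.77, adjusted p = 0.153), over a transcript of which Cre removes a part. Of the ILC3 markers, Il22 was between 8328.18 and 21159.06 FPKM and Kit between 242.1 and 285 FPKM in the 4 libraries. Several genes listed as markers of other lymphocytes moved with the genotype. The summed FPKM of 7 ILC2 markers was 311.64 and 192.46 in the Brg1-sufficient and 94.83 and 120.54 in the Brg1-deficient libraries, with Il5, Il17rb, Klrg1 and Areg lower by the list criteria defined below. Ncr1 (31.32 and 35.54 against 5.37 and 6.02 FPKM), Ifng and Tbx21 were lower as well, while Gzma was higher. The paper reports that NKp46+ ILC3s, a subset of ILC3s, express T-bet (Tbx21) and IFN-γ and are fewer without Brg1. Whether the lower Ncr1, Ifng and Tbx21 values came from that subset or from other cells was not tested. The T cell marker Cd3e was at 8.95 and 7.02 FPKM against 1.01 and 3.08 FPKM. Trac, another T cell marker, overlapped at 33.62 and 4.86 against 5.08 and 12.49 FPKM. The paper states that Rag1-/- mice lack T cells, and both donors were Rag1-/-. The part of other populations, or of ILC3 subsets, in the transporter values below was not tested. Transporters that define enterocytes were near 0: none of 10 listed (Slc5a1, Slc2a2, Slc15a1, Slc6a19 and others) reached a group mean of 1 FPKM, and their sum lay between 2.34 and 3.03 FPKM. Fewer cells of a type and less RNA per cell cannot be told apart in such bulk libraries.

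The Slc genes covered a wide span of levels, from 1.05 to 593 FPKM, with a median of 9.68 FPKM. Means above 10 FPKM were found for 82 of the 172 genes and means above 100 FPKM for 7. The highest was Slc25a3, the mitochondrial phosphate carrier, at 543.43 and 585.75 FPKM in the Brg1-sufficient and 691.39 and 550.79 FPKM in the Brg1-deficient libraries. It was followed by Slc3a2, the heavy chain shared by several amino acid transporters (CD98), and by Slc25a5, an ADP/ATP carrier. The others above 100 FPKM were Slc7a6os, Slc20a1, Slc25a36 and Slc1a5. Slc25a3 and Slc3a2 did not differ between genotypes beyond their spread, with log2 fold changes of 0.13 (SE 0.16) and -0.15 (SE 0.22) on the log2(FPKM + 1) scale. Of the 172 genes, 151 were above 1 FPKM in each of the 4 libraries. The group mean was above 1 FPKM in both groups for 160 genes, in the Brg1-sufficient group alone for 8 and in the Brg1-deficient group alone for 4. The 8 included Slc7a8, Slc7a5 and Slc16a1, and the 4 included Slc46a1 and Slc16a11. Just inside the limit were Slc25a15 and Slc23a1, both at a mean of 1.05 FPKM, and Slc10a1 at 1.06 FPKM. Just outside were Slc25a16 at 0.98, Slc6a7 at 0.978 and Slc16a12 at 0.948 FPKM, the last with 0.12 and 0.19 FPKM in the Brg1-sufficient and 2.63 and 0.85 FPKM in the Brg1-deficient libraries. Of 45 Slc genes listed from lymphocyte metabolism, 39 were above the limit. Slc7a11, the cystine transporter, lay below it at 1.31 and 0.80 against 0.45 and 0.74 FPKM, and so did the lactate exporter gene Slc16a3 at 0.45 and 1.39 against 0.51 and 1.06 FPKM.

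**Figure D1:**
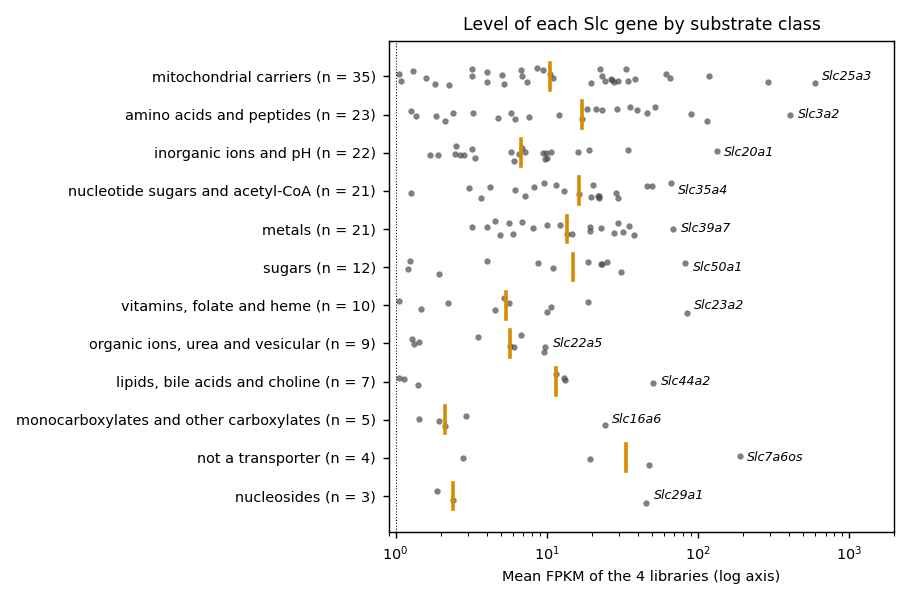
Mean FPKM of the 4 libraries on a log axis for each of the 172 Slc genes (points), by substrate class with the number of genes in each. Orange bars are class medians, the dotted line is the limit of 1 FPKM, and the gene named in a row is the highest of its class, from Slc25a3 at 593 FPKM down to Slc22a5 at 9.80 FPKM.

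4 of the 172 genes are named for a transporter without being one. Slc7a6os is a nuclear factor named for its place opposite Slc7a6, Slc9a3r1 and Slc9a3r2 are PDZ scaffolds that bind sodium/proton exchangers, and Slc4a1ap is an adaptor of the red cell anion exchanger. Slc7a6os was at 126.04 and 216.14 against 217.34 and 197.95 FPKM, and Slc9a3r1 at 46.26 and 57.60 against 44.03 and 41.50 FPKM. None of the 4 met the list criteria.

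Levels agreed between replicate libraries over these genes. The Pearson correlation of log2(FPKM + 1) across the 172 genes, which are not independent replicates, was 0.967 between the Brg1-sufficient and 0.986 between the Brg1-deficient libraries, and 0.933 to 0.960 between libraries of different genotype. The median absolute difference between replicates was 0.28 in the Brg1-sufficient and 0.18 in the Brg1-deficient pair on the log2(FPKM + 1) scale, against 0.27 and 0.18 over all protein-coding genes tested. The pairs that stood farthest apart included Slc16a11 in Brg1-deficient ILC3s (5.42 and 1.26 FPKM) and Slc31a2 (9.32 and 3.43 FPKM), Slc24a5 (9.23 and 3.56 FPKM) and Slc35d1 (23.23 and 9.86 FPKM) in Brg1-sufficient ILC3s.

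The genotypes were compared with limma over the 14739 genes with a mean above 1 FPKM in either group, and p-values were adjusted over all of them. Of the 172 Slc genes, all of which entered this fit, 1 fell and 0 rose at an adjusted p under 0.05. That compares with 0.208% of the 11069 protein-coding genes tested that were lower and 0.0542% that were higher. At an unadjusted p under 0.05, 13 were lower and 10 higher, against 6.47% and 6% of protein-coding genes. Among the 160 Slc genes above 1 FPKM in both groups, 10 were lower and 9 higher at that limit. A second rule, here called the list criteria and taken from the limits of the study's methods, asked for p under 0.05, adjusted p under 0.4, a mean above 5 FPKM in either group and a log2 ratio of the group means beyond 0.5. By the list criteria 8 Slc genes were lower and 7 higher in Brg1-deficient ILC3s, against 4.86% and 4.16% of protein-coding genes, and the 15 made up 8.72% of the 172 against 9.03%. Among the 119 Slc genes with a mean above 5 FPKM in either group the share was 12.6%, against 12.4% of protein-coding genes above that level. The share was thus near the background on both counts. The 2 values of one genotype lay entirely below or above the 2 of the other for 36 genes that were lower and 48 that were higher, 48.8% in all. Among protein-coding genes these shares were 20.9% lower and 25.4% higher, 46.3% in all. Of the 160 Slc genes above 1 FPKM in both groups, 31 were lower and 46 higher without overlap, 48.1% in all. The median log2 fold change was 0.05 over the 172 genes and 0.03 over all protein-coding genes tested.

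The smallest two-sided p that exact permutation of 2 and 2 libraries allows for 1 gene is 0.333, and the calls therefore lean on a variance estimated from many genes. The count of 8 lower genes became 5 without the first Brg1-sufficient library, 11 without the second, 2 without the first Brg1-deficient library and 1 without the second, and the count of 7 higher genes became 5, 15, 0 and 0.

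**Figure D2:**
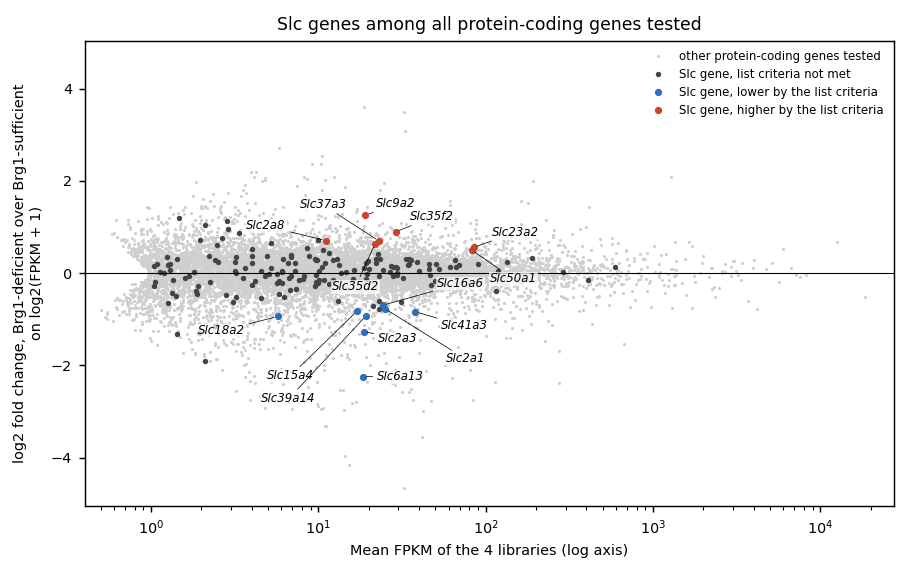
log2 fold change of Brg1-deficient over Brg1-sufficient ILC3s on log2(FPKM + 1), against the mean FPKM of the 4 libraries on a log axis, for the protein-coding genes tested (grey) and the 172 Slc genes (dark). The 8 lower (blue) and 7 higher (red) Slc genes by the list criteria are named, and Slc6a13 at -2.25 lies farthest from 0.

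Slc6a13 was the 1 Slc gene past the adjusted threshold. It encodes GAT2, a sodium- and chloride-coupled carrier of GABA and taurine, and the gene lies at chr6:121300227-121337733 on the plus strand (GRCm38). Its values were 29.52 and 32.61 against 4.91 and 6.72 FPKM, so that the groups stood far apart. The mean fell 5.34-fold, from 31.1 ± 2.19 to 5.82 ± 1.28 FPKM (SD, n = 2), with a log2 fold change of -2.25 (SE 0.20, limma adjusted p = 0.0386). The call did not hold without a filter on low genes (adjusted p = 0.0912), without the mean-variance trend (adjusted p = 0.124), or when any 1 library was left out, in which case the adjusted p was 0.255 or 0.184 without the first or second Brg1-sufficient library and 0.306 or 0.375 without the first or second Brg1-deficient one. Leaving out a library leaves 1 in its group, whose spread is then taken to equal that of the other group, and in these fits, as without the filter or the trend, 0 genes of all those tested passed an adjusted p of 0.05. At an unadjusted p under 0.05, 13 Slc genes were lower and 12 higher without the filter, and 13 and 9 without the trend. The shares over all genes at that limit were not computed for these 2 fits. The fold change of Slc6a13 stayed between -2.44 and -2.05 when 1 library was left out.

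The bases before the start of a few Slc genes that met the list criteria are given for orientation, from RefSeq promoter windows on GRCm38.p6, for Slc6a13 and Slc2a1, which were lower, and for Slc35f2 and Slc50a1, whose replicates lay closest together among the genes that were higher. Each stretch of 180 bases ends at the last base before an annotated exon and is printed 5′ to 3′ on the strand of the gene. The coordinates are chr6:121300047-121300226 (plus), chr4:119108531-119108710 (plus), chr9:53771355-53771534 (plus) and chr3:89270571-89270750 (minus). Capitals mark ACGTG, the core of the hypoxia response element, or TGCNCNC, the core of the metal response element, on either strand.
Slc6a13: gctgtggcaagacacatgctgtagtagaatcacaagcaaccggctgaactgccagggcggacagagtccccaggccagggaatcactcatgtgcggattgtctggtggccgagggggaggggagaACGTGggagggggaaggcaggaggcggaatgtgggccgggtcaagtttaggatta
Slc2a1: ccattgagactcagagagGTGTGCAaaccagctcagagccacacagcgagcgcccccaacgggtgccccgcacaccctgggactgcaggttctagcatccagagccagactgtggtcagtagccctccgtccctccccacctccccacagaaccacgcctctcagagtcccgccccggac
Slc35f2: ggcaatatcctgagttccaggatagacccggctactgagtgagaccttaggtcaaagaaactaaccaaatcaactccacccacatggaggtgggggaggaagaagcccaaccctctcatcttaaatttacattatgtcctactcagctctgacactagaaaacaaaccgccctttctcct
Slc50a1: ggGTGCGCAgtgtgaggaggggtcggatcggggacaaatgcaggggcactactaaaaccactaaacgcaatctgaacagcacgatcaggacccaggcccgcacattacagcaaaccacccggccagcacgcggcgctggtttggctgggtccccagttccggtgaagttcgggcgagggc

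RefSeq windows of 250 bases before to 50 after a start were at hand for 128 of the 172 genes. On either strand, ACGTG was found in 26.7% of the 176 windows of these genes and in 19.6% of all 32851 windows, and TGCNCNC in 56.2% and 51%. The lysosomal CLEAR motif CACGTGAC, which contains ACGTG, was found in 5.11% and 2.25%, and TGATGNAA, the core of the amino acid response element, in 2.84% and 3.97%. Among the 14 windows of the genes that met the list criteria, 4 held ACGTG, 6 TGCNCNC, 1 CACGTGAC and 1 TGATGNAA. A match is a description of letters only.

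Amino acid and peptide carriers were the class with the lowest median among those of more than 5 genes. The median log2 fold change of its 23 genes was -0.38, and 17 were negative. In 12 of them the Brg1-deficient values lay below both Brg1-sufficient values and in 4 above, against 20.9% and 25.4% of protein-coding genes. The 12 include Slc7a8 and Slc7a5, whose mean was above 1 FPKM in the Brg1-sufficient group alone. They thus entered the class only through the group where they were higher. Slc6a13 and Slc15a4 met the list criteria as lower, which 4.86% of protein-coding genes did.

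The other Slc6 gene at a high level was Slc6a6, the taurine transporter. Slc6a6 was at 35.84 and 42.48 against 38.52 and 42.64 FPKM, with overlapping groups. The share of Slc6a13 in the summed FPKM of the 3 Slc6 genes was 42.9% and 41.3% in the Brg1-sufficient and 10.9% and 13.5% in the Brg1-deficient libraries, and the sum was 68.81 and 78.89 against 45.23 and 49.92 FPKM. The third gene, Slc6a20a, a proline carrier, was at 3.45 and 3.80 against 1.80 and 0.56 FPKM. It lies across Ccr9 on the other strand, and whether counting used the strand is not given in the sources used here.

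All 3 Slc15 genes, which carry histidine and short peptides, had lower values in Brg1-deficient ILC3s. Slc15a4, a lysosomal carrier needed for signalling by endosomal Toll-like receptors, was at 20.65 and 23.36 against 13.07 and 10.97 FPKM, a log2 fold change of -0.82 (SE 0.18, adjusted p = 0.155). It met the list criteria, and its gene overlaps Glt1d1 on the other strand. Slc15a3, its lysosomal relative, was at 33.66 and 24.70 against 22.11 and 11.95 FPKM (adjusted p = 0.408), and the surface carrier Slc15a2 at 36.05 and 18.36 against 14.35 and 16.21 FPKM (adjusted p = 0.452). Neither met the list criteria, and the Brg1-sufficient replicates of Slc15a2 stood farther apart than the group means. The sum of the 3 was 90.36 and 66.42 against 49.53 and 39.13 FPKM.

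CD98, the Slc3a2 product, pairs with light chains of the Slc7 family that set the substrate. Slc7a6 (y+LAT2), which exchanges cationic for neutral amino acids, made up most of the light chain signal, at 30.11 and 34.32 against 39.15 and 39.10 FPKM. Slc7a5 (LAT1), the light chain best known from activated lymphocytes, was low, at 2.04 and 1.46 against 0.98 and 0.55 FPKM, and Slc7a7 (y+LAT1) was at 2.17 and 2.28 against 1.58 and 1.38 FPKM. Slc7a8 (LAT2), a carrier of neutral amino acids, was at 3.81 and 3.98 against 0.44 and 0.20 FPKM, a log2 fold change of -1.90 (SE 0.30, adjusted p = 0.0982). Its groups stood far apart, but its level was too low for the list criteria. The share of Slc7a6 in the summed FPKM of these 4 light chains was 79.0% and 81.6% against 92.9% and 94.8%, whereas the sum itself was 38.13 and 42.04 against 42.15 and 41.23 FPKM. Slc3a2 exceeded the summed light chains 13-fold and 8.61-fold in the Brg1-sufficient and 10.4-fold and 8.07-fold in the Brg1-deficient libraries.

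No carrier of glutamine or arginine met the list criteria. Slc1a5 (ASCT2), a glutamine exchanger, was at 139.95 and 120.09 against 96.29 and 101.52 FPKM, a log2 fold change of -0.39 (SE 0.14, adjusted p = 0.368), below the size that the list criteria ask for. The sodium-coupled glutamine carriers Slc38a2, at 81.28 and 86.22 against 98.26 and 94.81 FPKM, and Slc38a1, at 50.07 and 51.24 against 54.90 and 52.75 FPKM, had higher values with log2 fold changes of 0.20 and 0.09. Slc7a1, the arginine carrier CAT1, overlapped at 24.70 and 30.54 against 35.20 and 26.20 FPKM. The large neutral amino acid carrier Slc43a2 was at 8.62 and 6.29 against 3.92 and 5.96 FPKM, and Slc16a10, a carrier of aromatic amino acids, at 6.87 and 6.89 against 5.25 and 4.25 FPKM. Neither passed a threshold.

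Sugar carriers held 5 of the 15 genes that met the list criteria among 12 genes, 2 lower and 3 higher, where 9.03% of all protein-coding genes and 12.4% of those above 5 FPKM met them. The 2 lower were glucose transporters of the plasma membrane. Slc2a3 (GLUT3) was at 30.13 and 23.55 against 9.96 and 11.05 FPKM, 2.56-fold lower, with a log2 fold change of -1.27 (SE 0.19, adjusted p = 0.0901). Slc2a1 (GLUT1) was at 33.80 and 29.56 against 21.42 and 15.27 FPKM, 1.73-fold lower, with a log2 fold change of -0.77 (SE 0.21, adjusted p = 0.236). Both pairs of groups were apart.

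The other GLUT genes did not follow a single direction. Slc2a8 (GLUT8), a carrier of internal membranes, was at 6.66 and 9.77 against 15.79 and 12.12 FPKM, a log2 fold change of 0.71 (SE 0.25, adjusted p = 0.342), and met the list criteria. Slc2a6 (GLUT6), a lysosomal carrier, was at 32.15 and 43.72 against 30.11 and 18.99 FPKM (adjusted p = 0.437) and did not. Slc2a9, a urate carrier, was at 1.19 and 1.25 against 2.18 and 3.19 FPKM. The summed FPKM of the 5 GLUT genes was 103.93 and 107.85 in Brg1-sufficient and 79.46 and 60.62 in Brg1-deficient ILC3s, 66.1% of the sufficient mean. Of that sum, Slc2a8 made up 6.41% and 9.06% against 19.9% and 19.99%, and Slc2a3 29% and 21.8% against 12.5% and 18.2%.

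The other 2 higher sugar genes were Slc37a3 and Slc50a1. Slc37a3, a lysosomal member of the sugar phosphate exchanger family, was at 17.65 and 16.85 against 31.41 and 26.12 FPKM (log2 fold change 0.70, SE 0.17, adjusted p = 0.185). Slc50a1, the single animal SWEET glucose carrier, was at 66.90 and 69.19 against 97.39 and 96.34 FPKM, a change of 1.42-fold with replicates close together (log2 fold change 0.50, SE 0.13, adjusted p = 0.219). Slc37a4, the glucose-6-phosphate carrier of the endoplasmic reticulum, was at 8.17 and 6.92 against 9.61 and 10.46 FPKM and did not meet the criteria. The myo-inositol carrier Slc5a3, at 35.87 and 21.05 against 20.19 and 15.64 FPKM, did not either, and it shares its strand and position with Mrps6, so that its reads are uncertain.

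**Figure D3:**
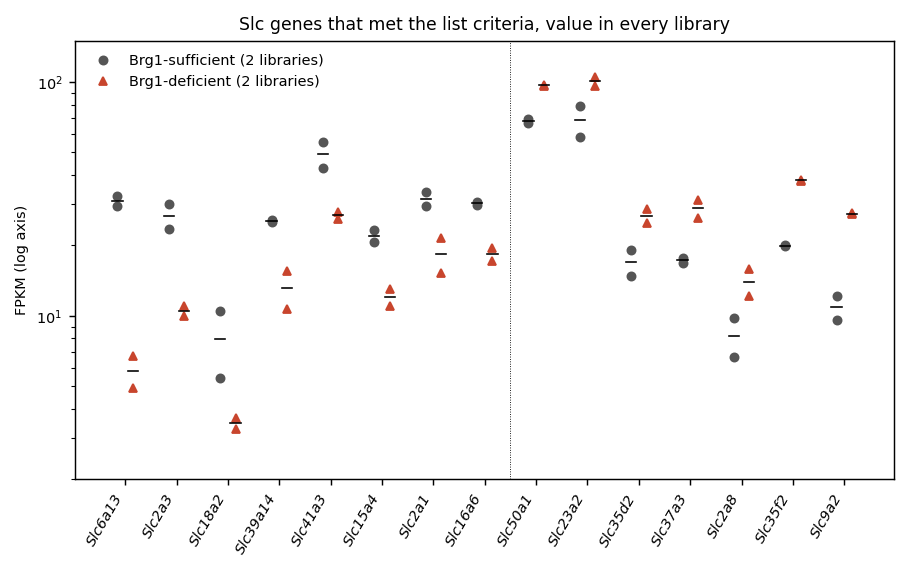
FPKM on a log axis in each library for the 15 Slc genes that met the list criteria, lower on the left of the dotted line and higher on the right. Circles are the 2 Brg1-sufficient and triangles the 2 Brg1-deficient libraries, short bars are group means, and the groups do not overlap for any of the 15, with Slc6a13 (29.52 and 32.61 against 4.91 and 6.72 FPKM) the widest apart.

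The other Slc16 genes carry lactate, ketone bodies and other carboxylates. Slc16a6 (MCT7), which carries ketone bodies, was at 30.69 and 29.83 against 19.52 and 17.16 FPKM, with a log2 fold change of -0.70 (SE 0.15, adjusted p = 0.167), and met the list criteria. It overlaps Arsg and Amz2 on the other strand, which had log2 fold changes of -0.25 and 0.22. Slc16a1 (MCT1), the lactate carrier, was at 3.42 and 2.89 against 0.86 and 0.54 FPKM (log2 fold change -1.29, adjusted p = 0.180). It was under the level that the list criteria ask for. Slc16a13 was at 0.87 and 2.65 against 3.87 and 4.22 FPKM. Slc16a11, at 0.60 and 1.16 against 5.42 and 1.26 FPKM, owed its higher mean to the first Brg1-deficient library.

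Ion carriers had a median log2 fold change of 0.23 over 22 genes, with 3 lower and 7 higher without overlap, where the background shares were 20.9% and 25.4%. By the list criteria 1 was higher, which 4.16% of protein-coding genes were. It was Slc9a2 (NHE2), a sodium/proton exchanger known from the apical membrane of epithelia, at 9.61 and 12.20 against 27.45 and 27.19 FPKM. That was 2.51-fold higher, with a log2 fold change of 1.26 (SE 0.18, adjusted p = 0.0845). Krt18, a keratin in the list of epithelial markers, was higher too, at 2.02 and 3.48 against 15.72 and 12.92 FPKM. So was Krt8, at 0.44 and 0.38 against 2.65 and 2.34 FPKM. Epcam was at 1.5 and 1.79 against 0.68 and 0.54 FPKM, and Vil1, Fabp1, Alpi and Lct were below 1 FPKM in every library. The sum of all 12 epithelial markers, 6.18 and 7.36 against 20.95 and 18.53 FPKM, rose mainly through Krt18. The part of epithelial RNA in the Slc9a2 value was not tested.

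Slc9a2 was below Slc9a8 in both Brg1-sufficient libraries and above it in both Brg1-deficient ones. The organelle exchangers Slc9a8, at 15.56 and 17.95 against 15.68 and 15.01 FPKM, and Slc9a9, at 8.81 and 12.07 against 8.86 and 9.03 FPKM, overlapped between the genotypes.

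Among the other ion carriers, Slc20a1, the sodium-coupled phosphate importer, was the highest at 144.02 and 102.01 against 150.99 and 138.07 FPKM. Slc4a7, a sodium bicarbonate carrier, was at 27.39 and 37.05 against 41.73 and 31.54 FPKM, and the potassium chloride carrier Slc12a7 was at 4.46 and 7.46 against 4.89 and 7.42 FPKM. All 3 overlapped between genotypes. Slc24a3, a potassium-dependent sodium/calcium exchanger, was at 1.18 and 1.65 against 3.91 and 4.65 FPKM (log2 fold change 1.13, adjusted p = 0.181), and the anion exchanger Slc26a6 at 1.74 and 2.40 against 5.83 and 3.54 FPKM (log2 fold change 0.87, adjusted p = 0.343). Both had an unadjusted p under 0.05 and groups that did not overlap.

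**Figure D4:**
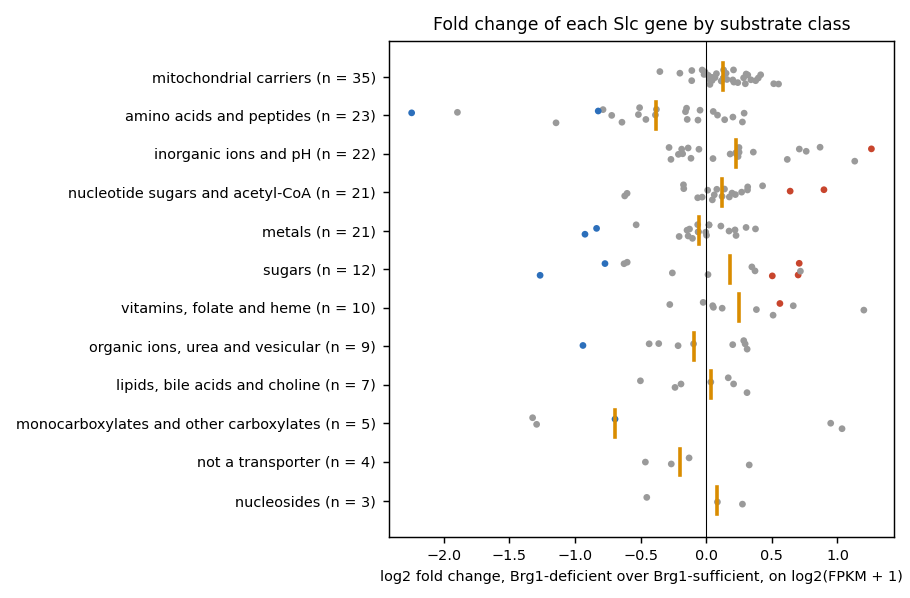
log2 fold change of Brg1-deficient over Brg1-sufficient ILC3s on log2(FPKM + 1) for each Slc gene (points), by substrate class with the number of genes in each. Blue and red points met the list criteria as lower and higher, orange bars are class medians, and the medians run from -0.70 for the 5 carboxylate carriers to 0.25 for the 10 vitamin, folate and heme carriers.

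Metal carriers showed a median log2 fold change of -0.06 over 21 genes, 15 of which overlapped between genotypes. Values did not overlap for 46.3% of protein-coding genes. The 2 metal carriers that met the list criteria were lower, which 4.86% of protein-coding genes were. Slc39a14 (ZIP14), which imports zinc, manganese and iron, was at 25.14 and 25.71 against 15.57 and 10.70 FPKM (log2 fold change -0.92, SE 0.21, adjusted p = 0.181). Slc41a3, of the magnesium carrier family, was at 42.93 and 55.20 against 27.75 and 25.95 FPKM (log2 fold change -0.84, SE 0.18, adjusted p = 0.153). Slc41a1, its relative at the plasma membrane, was at 32.67 and 33.79 against 35.45 and 26.78 FPKM.

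Of the 10 other zinc importers, Slc39a11 (18.73 and 16.80 against 20.40 and 21.24 FPKM) was higher and Slc39a13 (7.24 and 4.04 against 3.44 and 3.46 FPKM) lower without overlap, and neither met the list criteria. The rest overlapped. Slc39a7 (ZIP7), which releases zinc from the endoplasmic reticulum, was at 56.77 and 72.94 against 73.54 and 71.92 FPKM, Slc39a6 at 11.82 and 14.16 against 10.99 and 12.23 FPKM, and Slc39a8 (ZIP8) at 12.32 and 8.82 against 11.03 and 7.98 FPKM. The summed FPKM of the 11 ZIP genes was 200.28 and 201.38 against 204.48 and 190.90, of which Slc39a14 made up 12.6% and 12.8% against 7.61% and 5.61%. The 4 ZnT exporters of the Slc30 family summed to 64.19 and 62.04 against 56.80 and 66.86 FPKM. For iron, Slc11a2 (DMT1) was at 25.32 and 37.88 against 39.02 and 37.94 FPKM and Slc11a1 (NRAMP1), a phagosomal carrier, at 6.61 and 5.34 against 6.67 and 5.48 FPKM. Of 5 metal response genes tested, 1 was lower by the list criteria, which 4.86% of protein-coding genes were. It was the ferritin gene Fth1, at 2361.29 and 1959.99 against 1293.25 and 1267.36 FPKM.

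Carriers of vitamins, folate and heme had a median log2 fold change of 0.25 over 10 genes, with 6 higher and 0 lower without overlap (25.4% and 20.9% of protein-coding genes). The 6 include Slc46a1, which entered the class only through its mean in the Brg1-deficient group. Slc23a2 (SVCT2), the ascorbate carrier of most tissues, was at 58.24 and 78.92 against 105.27 and 96.02 FPKM, 1.47-fold higher (log2 fold change 0.56, SE 0.19, adjusted p = 0.326), and met the list criteria. Its relative Slc23a1 was at 1.88 and 0.68 against 0.87 and 0.76 FPKM. The folate carriers had higher values as well, but not past the list criteria: Slc19a1, the reduced folate carrier, was at 7.47 and 9.68 against 11.14 and 14.10 FPKM (adjusted p = 0.424), and Slc46a1, the proton-coupled folate carrier, at 0.33 and 0.68 against 2.68 and 2.21 FPKM (log2 fold change 1.2, adjusted p = 0.239). The heme carrier Slc48a1 was at 17.73 and 18.25 against 21.07 and 18.33 FPKM, the biotin and pantothenate carrier Slc5a6 at 1.42 and 2.19 against 2.79 and 2.46 FPKM, and the lysosomal Slc46a3 at 10.11 and 9.45 against 11.95 and 8.67 FPKM.

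The class of nucleotide sugar carriers, which bring activated sugars into the Golgi and endoplasmic reticulum for glycosylation, was made up of 20 Slc35 genes and the acetyl-CoA carrier Slc33a1, and its median log2 fold change was 0.12 over 21 genes. The 2 that met the list criteria were higher, which 4.16% of protein-coding genes were. Slc35f2, an Slc35 protein of the plasma membrane, was at 20.05 and 19.82 against 38.20 and 37.77 FPKM, 1.91-fold higher with replicates close together (log2 fold change 0.90, SE 0.14, adjusted p = 0.0982). Slc35d2, a Golgi carrier of UDP-N-acetylglucosamine, was at 14.73 and 19.08 against 24.86 and 28.64 FPKM (log2 fold change 0.64, SE 0.19, adjusted p = 0.267). The most abundant genes of the class were Slc35a4, at 60.31 and 65.78 against 73.60 and 65.53 FPKM, and Slc35b2, which carries the sulfate donor PAPS, at 52.28 and 52.34 against 52.29 and 41.05 FPKM. Both overlapped.

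Mitochondrial carriers of the Slc25 family formed the largest class, and 0 of the 35 met the list criteria or had an unadjusted p under 0.05 in either direction. Among protein-coding genes 9.03% met the list criteria, and 6.47% were lower and 6% higher at that unadjusted limit. The median log2 fold change of the 35 carriers was 0.13, with 28 positive. Values did not overlap for 10 that were higher and 3 that were lower, beside 25.4% and 20.9% of protein-coding genes. The summed FPKM was 1472 and 1462 against 1703 and 1487, so that the second Brg1-deficient library lay close to the Brg1-sufficient ones. Slc25a5, the main ADP/ATP carrier, was at 319.04 and 256.09 against 313.02 and 270.39 FPKM, and its relative Slc25a4 at 30.65 and 33.58 against 37.16 and 37.25 FPKM. Slc25a1, which exports citrate, was at 17.16 and 22.40 against 20.90 and 18.16 FPKM. The carnitine/acylcarnitine carrier Slc25a20, at 28.84 and 31.20 against 35.78 and 38.48 FPKM, was higher without overlap (log2 fold change 0.30, SE 0.15, adjusted p = 0.486).

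**Figure D5:**
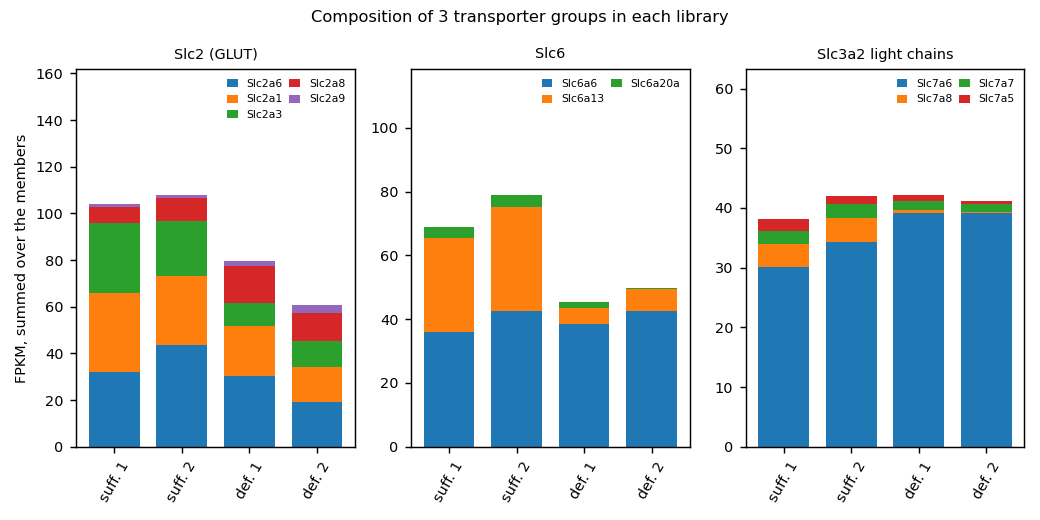
FPKM in each of the 4 libraries, stacked by gene, for the 5 GLUT genes, the 3 Slc6 genes and the 4 Slc3a2 light chains. Each panel has its own axis starting at 0, and the share of Slc2a8 is larger and those of Slc6a13 and Slc7a8 smaller in the Brg1-deficient libraries.

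The 9 organic ion and vesicular carriers held 1 gene that met the list criteria, which 9.03% of protein-coding genes did. Slc18a2 (VMAT2), which loads monoamines into vesicles, was at 10.44 and 5.43 against 3.66 and 3.29 FPKM (log2 fold change -0.94, SE 0.32, adjusted p = 0.332), and the Brg1-sufficient replicates differed more than the second of them did from the Brg1-deficient ones. Slc22a5 (OCTN2), the carnitine importer, was at 8.17 and 9.24 against 10.99 and 10.81 FPKM, and Slc17a5 (sialin), a lysosomal carrier of sialic acid, at 8.95 and 8.25 against 10.64 and 10.75 FPKM. Both were higher without overlap and neither met the criteria.

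The 3 nucleoside and 7 lipid carriers held none, where 9.03% of protein-coding genes met the list criteria. Slc29a1 (ENT1), the main nucleoside carrier, was at 49.95 and 38.68 against 50.84 and 42.88 FPKM, and the lysosomal Slc29a3 (ENT3) at 1.54 and 2.67 against 2.86 and 2.54 FPKM. The choline carrier family gene Slc44a2 was at 36.09 and 59.47 against 54.10 and 53.34 FPKM, and Slc10a7 at 11.87 and 13.10 against 14.51 and 13.76 FPKM.

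Within 100 kb of the 15 genes that met the list criteria lay 43 other protein-coding genes that were tested, beside 13 of the 15, of which 3 met the list criteria in the same and 2 in the opposite direction, against 9.03% of protein-coding genes in either. Among the 172 genes, 35 overlap another protein-coding gene, and reads of such pairs may have been split between them.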

How the data were processed

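Poly(A)-selected, PCR-amplified cDNA of sorted small intestinal ILC3s was sequenced in single-end reads of 90 bases, with 2 libraries per genotype. The authors aligned reads with STAR 2.5 to GRCm38.p5 and quantified genes with RSEM 1.2 on GENCODE annotation, and the deposited table gives FPKM for 53379 genes in each library. Ranked values of the 4 libraries differ by less than 1% at 99.3% of the 13693 ranks with a mean above 1 FPKM, so the deposited FPKM had been brought to a shared distribution by a step that is not given in the sources used here. Read depth is unknown, and between 30046 and 36929 genes were above 0 per library.

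log2(FPKM + 1) of genes with a mean above 1 FPKM in either group was tested with limma 3.58.1 in R 4.3.3 (empirical Bayes with a trend, Benjamini-Hochberg adjustment, two-sided), checked first on simulated data. The edgeR test of the study's methods needs counts and was not used. A fold change on this scale understates the change of low genes. SD is over the 2 libraries of a group. The study's methods call the replicates biological, without naming animals.

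Genes were named if they passed the adjusted threshold or the list criteria, were the 2 highest of a substrate class, stood on a list of 45 carriers known from lymphocyte metabolism, or lay at the limit of 1 FPKM. Slc7a8, Slc6a20a, Slc24a3, Slc26a6, Slc46a1 and further relatives of these were named after their values were seen. The genes, lists and rules were chosen with earlier results of these data known. Gene positions are from GENCODE M21 on GRCm38. Alternatives were a replicate block, another pseudocount, no filter, 2 other scalings, no trend, other level limits and leaving out each library. Some genes that the rule names are not reported here.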

Additional observations from a re-analysis of the deposited data

How the results depend on the processing

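The count of Slc genes lower at an adjusted p under 0.05 was 1, and it was 0 without a filter on low FPKM, 0 without the mean-variance trend in limma and 0 when any 1 library was left out, with 0 higher in each of these. Without the filter 0 genes of all 44235 passed, while 13 Slc genes were lower and 12 higher at an unadjusted p under 0.05. For Slc6a13 the adjusted p was 0.0386, 0.0912 without the filter, 0.124 without the trend, and between 0.000998 and 0.375 over all alternatives. By the list criteria the 8 lower and 7 higher genes became 3 and 2 without the filter, and between 1 and 11 lower and between 0 and 15 higher when 1 library was left out. A pseudocount of 0.1, rescaled libraries and quantile normalization left Slc6a13 as the 1 Slc gene under an adjusted p of 0.05. The 15 genes by the list criteria were all among the 19 with rescaled libraries and the 22 with a mean above 1 FPKM in place of 5. With means above 0.5 or 5 FPKM, or above 1 FPKM in each library, the number of Slc genes was 198, 117 or 151.

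Pairing by the replicate numbers shared by the genotypes was looked for over all genes tested. The correlation of same-numbered deviations from the group means was -0.00039. The summed FPKM of 10 macrophage and dendritic cell markers was larger in the second library of each genotype (155.56 and 340.38 against 115.12 and 303.3). That of 7 T cell markers moved in opposite directions (130.52 and 59.2 against 34.18 and 43.42). With 2 libraries per genotype, these values cannot show whether same-numbered libraries came from the same chimeras. A fit with a block for the replicate number had 3 Slc genes that were lower (Slc6a13, Slc7a8, Slc2a3) and 2 higher (Slc9a2, Slc35f2) at an adjusted p under 0.05. Over all 14739 genes tested, the block fit had 248 lower and 150 higher, where the main fit had 33 and 12. The adjusted p under the block was 0.0163 for Slc2a3, 0.0141 for Slc9a2 and 0.0383 for Slc35f2, and the list criteria took 22 genes, among them the 15. The share of all genes that met the list criteria under the block was not computed.

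Among the 62 genes recomputed under every alternative, those taken by the naming rule, the sign of the log2 fold change turned only when 1 library was left out, in these ranges of log2 fold change: Slc3a2 -0.38 to 0.078, Slc4a7 -0.029 to 0.39, Slc44a2 -0.14 to 0.56, Slc39a7 -0.0042 to 0.35, Slc7a6os -0.059 to 0.71, Slc7a1 -0.066 to 0.35, Slc6a6 -0.066 to 0.17, Slc39a8 -0.36 to 0.082, Slc39a10 -0.052 to 0.51, Slc12a7 -0.26 to 0.37, Slc25a15 -0.094 to 0.41, Slc25a3 -0.035 to 0.29, Slc25a5 -0.13 to 0.18, Slc25a1 -0.19 to 0.17, Slc29a1 -0.095 to 0.27, Slc11a1 -0.11 to 0.15, Slc9a9 -0.39 to 0.020 and Slc46a3 -0.16 to 0.27. None of these had passed a threshold, and the cause was not tested. The read depth is unknown, which limits what can be said of the genes near 1 FPKM.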

Other observations

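Transport genes outside the Slc names were read from lists chosen with earlier results of these data known. Of 23 solute carrier genes without an Slc name that were tested, 1 was lower and 1 higher by the list criteria. Among protein-coding genes these shares were 4.86% and 4.16%. Ucp3, a mitochondrial carrier of the uncoupling protein group, was at 2.15 and 3.33 against 18.55 and 17.59 FPKM (Brg1-sufficient libraries first), a log2 fold change of 2.37 (SE 0.23, limma adjusted p = 0.0386). Its abundant relative Ucp2 was at 280.63 and 598.11 against 735.00 and 660.77 FPKM (adjusted p = 0.469). Slco3a1, an organic anion carrier, was at 10.01 and 6.71 against 4.14 and 4.34 FPKM (adjusted p = 0.268). The summed FPKM of the whole list was 825 and 1102 against 1238 and 1209.

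Of 10 ion-motive ATPases tested, values did not overlap for 8 that were lower and 0 that were higher, against 20.9% and 25.4% of protein-coding genes tested, and 1 met the list criteria, the plasma membrane calcium pump gene Atp2b4 (7.21 and 3.30 against 1.18 and 1.48 FPKM). Of 25 ABC transporters, Abcc1 and the xenobiotic exporter gene Abcg2 (7.61 and 5.55 against 1.82 and 1.78 FPKM) were lower and Abca3 was higher by the list criteria, which 4.86% and 4.16% of protein-coding genes met in these directions. Among 24 genes of amino acid sensing and the amino acid stress response, Rraga and Phgdh were lower. Phgdh, the first enzyme of serine synthesis, was at 7.75 and 7.12 against 0.92 and 0.66 FPKM (log2 fold change -2.24, SE 0.24, adjusted p = 0.0535). Of 3 PDZ scaffold genes, Pdzk1 was at 1.98 and 8.82 against 55.89 and 64.04 FPKM (log2 fold change 3.49, SE 0.55, adjusted p = 0.0982), whereas Slc9a3r1 and Slc9a3r2 did not meet the criteria.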
